A study of Mus musculus with 4 samples.

Results

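The genes described here are 9 members of the IL-22, IL-23 and IL-17 axis of mucosal immunity, namely Il22, Il22ra1, Il22ra2, Il10rb, Il23a, Il12b, Il23r, Il17a and Ahr. They were taken by symbol from a table of 53819 gene symbols, and all 9 were found. RNA was sequenced in bulk from samples labelled as primary colonic eosinophils of wild-type C57Bl/6 mice. One group of mice received 3% dextran sulfate sodium (DSS), an agent that damages the lining of the colon and is used to model colitis, and the control group drank water. Each group had 2 libraries, and all carried the label D6. The sources used here do not give the age of the mice, whether animals were pooled, or the isolation method and purity of the cells.

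In this axis, myeloid cells release IL-23, a pair of the p19 subunit (Il23a) and the p40 subunit (Il12b). IL-23 acts through its receptor (Il23r) on innate lymphoid cells and T cells of the type 3 class, which secrete IL-22 and IL-17A. IL-22 has no receptor on most blood cells and signals to epithelium through Il22ra1 paired with Il10rb, where it is known for antimicrobial and repair genes, while the soluble receptor encoded by Il22ra2 (IL-22 binding protein) captures it. AHR, a ligand-activated transcription factor that senses dietary and microbial compounds, is needed for IL-22 production in the gut. The title of the series names COX-2 of eosinophils, prostaglandin E2 and IL-22, and the question asked of these genes was whether they differed between DSS and water libraries.

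Total counts ranged from 30985905 to 34126329 per library. Markers of other cells were present in every library. The 10 epithelial markers summed to 3420 and 8430 CPM (counts scaled to a common library total, adjusted by edgeR's TMM factors) in the DSS libraries and to 8670 and 6360 CPM in the water libraries. The 10 eosinophil markers summed to 94.4 and 352 CPM in DSS and to 7.85 and 72.9 CPM in water. Of these 10 markers, 3 and 0 had no reads in DSS replicates 1 and 2, against 5 and 3 in water replicates 1 and 2. The peroxidase gene Epx had none in DSS replicate 1 or water replicate 1, and the IL-5 receptor gene Il5ra had none in water replicate 1. There the surface markers Siglecf and Ccr3 had 28 and 4 reads, while the granule gene Prg2 had 54 reads, more than the 26 in water replicate 2. Immunoglobulin transcripts took 31.8% and 8.31% of counts in DSS replicates 1 and 2 and 7.88% and 6.78% in water replicates 1 and 2. Results that rest on single libraries are therefore given with and without them. Fewer cells of a type and less RNA per cell cannot be told apart in bulk samples.

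The upstream cytokine gene Il23a stood higher in both DSS libraries than in both water libraries, furthest apart among the genes with more than a few reads. For Il12b the nearest libraries, DSS replicate 2 (3.30 CPM) and water replicate 2 (3.18 CPM), were level within counting error. Il22, Il23a, Il12b, Il23r, Il17a and Ahr, or 6 of the 9, had groups that did not overlap, all higher in DSS, and the IL-22 receptor genes Il22ra1, Il22ra2 and Il10rb had groups that overlapped. By edgeR's quasi-likelihood test with Benjamini-Hochberg adjustment over all 18788 genes tested, 0 of the 9 members were called. DESeq2 called 1, Il23a. Il23a and Il17a had an unadjusted edgeR p under 0.05. The log2 fold change was above 0 for 7 of the 9 members, against 49.2% of all genes tested.

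These counts were read against the whole table. edgeR called 3 of the 18788 genes (0.016%), all lower in DSS. An unadjusted p under 0.05 was found for 5.06% of genes in the higher direction and for 3.39% in the lower. Groups did not overlap for 20.8% of genes higher in DSS. DESeq2 called 1.64% of genes higher in DSS. All 9 members passed the filter on low counts. Il23r passed it through the DSS libraries alone, so its difference was in part required by the filter.

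**Figure D1:**
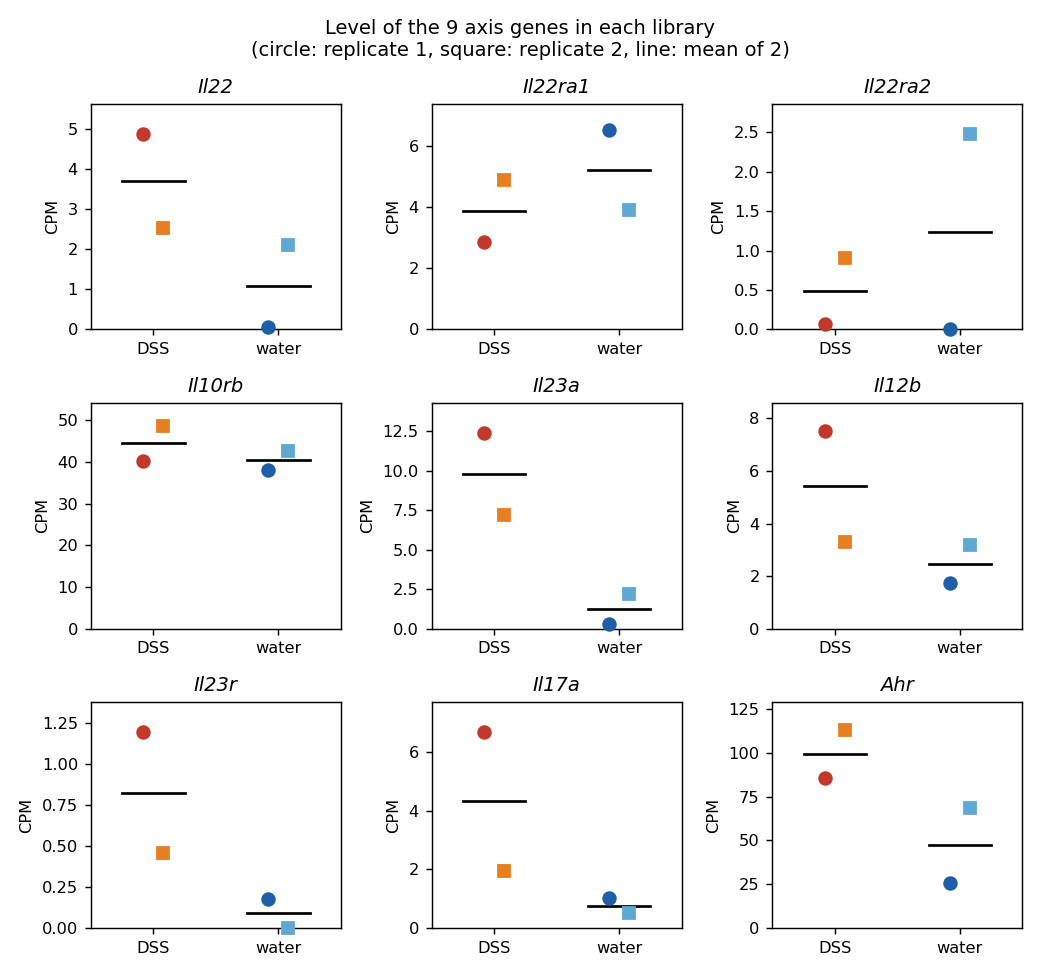
Level of each of the 9 genes in CPM (linear axis from 0) in the DSS libraries (left) and the water libraries (right), with circles for replicate 1, squares for replicate 2 and a line at the mean of 2. Il23a stands at 12.4 and 7.23 CPM in DSS and at 0.296 and 2.22 CPM in water, whereas the Il10rb points of the groups interleave.

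Il23a encodes p19, the subunit found only in IL-23. The gene lies on chromosome 10 (128296139 to 128298752, minus strand, GRCm38) and had 334 and 254 reads in DSS replicates 1 and 2, against 10 and 76 reads in water replicates 1 and 2. In CPM this was 12.4 and 7.23 in DSS and 0.296 and 2.22 in water, a mean of 9.83 ± 3.68 CPM in DSS and 1.26 ± 1.36 CPM in water (SD, n = 2 each). Each DSS library exceeded each water library, and the exact 95% counting intervals of the nearest libraries did not meet (6.37 to 8.17 CPM in DSS replicate 2, 1.75 to 2.78 CPM in water replicate 2). On the log2 scale DSS over water was 2.96 (SE 0.92), rank 271 from the top of 18788. By edgeR the adjusted p was 0.506 (unadjusted 0.0179), and by DESeq2, which called it, 0.0135. The DESeq2 call held in 1 of 4 fits that left out a library. It was lost when DSS replicate 1 (adjusted p = 0.641), DSS replicate 2 (0.0503) or water replicate 1 (0.197) was left out, and without water replicate 2 both tools called the gene (edgeR adjusted p = 0.0413). By edgeR the log2 fold change was 2.11 without water replicate 1 and 5.04 without water replicate 2.

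Il12b encodes p40, which IL-23 shares with IL-12 (chromosome 11, 44400063 to 44414033, plus strand). It had 7.52 and 3.30 CPM in DSS and 1.72 and 3.18 CPM in water. DSS replicate 2 and water replicate 2 were level within counting error, with intervals of 2.73 to 3.96 CPM and 2.61 to 3.84 CPM, so the separation of the groups rested on DSS replicate 1 and water replicate 1. Its log2 fold change of 1.14 (SE 0.62, edgeR adjusted p = 0.706) ranged from 0.41 without DSS replicate 1 to 1.65 without water replicate 2.

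The balance of the IL-23 subunits also differed in value. Per kilobase of annotated exon, Il23a stood at 1.45 and 1.92 times Il12b within the DSS libraries, against 0.151 and 0.610 times within the water libraries. Each DSS ratio thus lay above 1 and each water ratio below 1. Il12a, the p35 subunit that pairs with p40 to make IL-12, was 0.303 and 0.628 times Il12b in DSS and 0 and 0.371 times in water, where water replicate 1 had no Il12a reads. These ratios were formed after the values were seen and were not tested.

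Il23r, the IL-23-specific receptor chain, was near the limit of detection (chromosome 6, 67422932 to 67491855, minus strand). Reads numbered 32 and 16 in DSS and 6 and 0 in water, or 1.19 and 0.455 CPM against 0.178 and 0 CPM. The 0 reads of water replicate 2 allow up to 0.0876 CPM at a floor of 3 counts, or 0.108 CPM as the upper end of the exact 95% interval. The groups did not overlap, but the counting interval of DSS replicate 2 (0.260 to 0.739 CPM) met that of water replicate 1 (0.0653 to 0.387 CPM). The log2 fold change of 3.15 had an SE of 1.7 (edgeR adjusted p = 0.702). It was 7.71 without water replicate 1, where the other water library had no reads, and 2.19 without water replicate 2. Il12rb1, the chain that Il23r pairs with, had 8.11 and 3.24 CPM in DSS and 2.19 and 2.07 CPM in water (log2 fold change 1.41, SE 0.60, edgeR adjusted p = 0.613).

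Il17a encodes IL-17A, the cytokine that brings neutrophils to barrier tissue (chromosome 1, 20730905 to 20734496, plus strand). It had 180 and 69 reads in DSS and 34 and 17 reads in water, or 6.70 and 1.96 CPM against 1.01 and 0.496 CPM. Each DSS library exceeded each water library, and DSS replicate 1 stood well above DSS replicate 2. Its log2 fold change was 2.52 (SE 0.82), with an adjusted p of 0.525 by edgeR (unadjusted 0.0218) and 0.0884 by DESeq2. It ranged from 1.38 without DSS replicate 1 to 3.15 without DSS replicate 2.

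Il17f, the closest relative of Il17a and its neighbour on chromosome 1 (20777146 to 20790617, minus strand), did not follow it. Il17f had 22 and 8 reads in DSS and 24 and 66 reads in water, or 0.819 and 0.228 CPM against 0.711 and 1.93 CPM (log2 fold change -1.34, SE 1.05, edgeR adjusted p = 0.803). Per kilobase of exon, Il17a stood at 14.1 and 14.9 times Il17f in the DSS libraries and at 2.45 and 0.445 times in the water libraries. The DSS libraries were alike in this ratio although their Il17a levels differed. This ratio was chosen after the values were seen, was not tested and rests on as few as 8 Il17f reads.

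**Figure D2:**
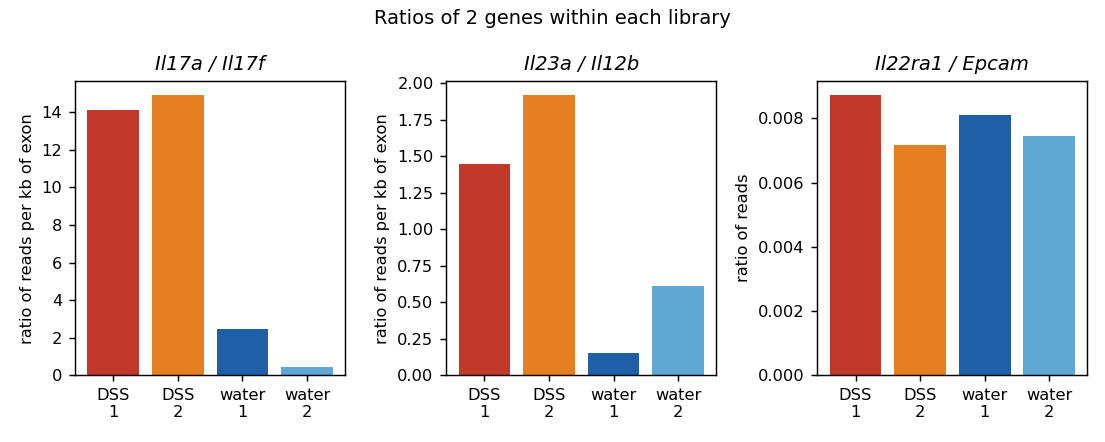
Ratio of Il17a to Il17f and of Il23a to Il12b (reads per kilobase of annotated exon) and of Il22ra1 to Epcam (reads) in each of the 4 libraries, one bar per library, linear axes from 0. Il17a over Il17f is 14.1 and 14.9 in DSS and 2.45 and 0.445 in water, while Il22ra1 over Epcam lies between 0.00717 and 0.00873 in all 4 libraries.

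Il22 encodes the cytokine of the axis that acts on epithelium (chromosome 10, 118204942 to 118210047, plus strand). It had 131 and 89 reads in DSS and 2 and 72 reads in water, or 4.88 and 2.53 CPM against 0.0593 and 2.10 CPM. Water replicate 1 was below the floor of 3 counts (0.0889 CPM). Water replicate 2 was close to DSS replicate 2, and their counting intervals met (1.64 to 2.65 CPM in water, 2.03 to 3.12 CPM in DSS). Il22 averaged 3.70 ± 1.66 CPM in DSS and 1.08 ± 1.44 CPM in water (SD, n = 2 each). A log2 fold change of 1.77 resulted (SE 1.3, edgeR adjusted p = 0.784; DESeq2 adjusted p = 0.706). It was 0.78 without water replicate 1 and 5.88 without water replicate 2, so the size of the difference was set by which water library was compared. DESeq2 called Il22 without water replicate 2 (adjusted p = 0.00162), and edgeR did not (adjusted p = 0.0911).

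Iltifb is a near copy of Il22 on the same chromosome. The protein-coding transcripts of both genes were identical at 1081 of 1110 aligned bases (97.4%), and 20.4% of the 100-base windows of the Il22 transcript also occurred in that of Iltifb. Iltifb had 1 read in DSS replicate 1 and 0 in the other 3 libraries. How reads matching both genes were counted is not stated, so the Il22 counts are uncertain by the reads that could not be placed.

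The IL-22 receptor genes did not separate the groups. Il22ra1, the IL-22-specific receptor chain of epithelial cells (chromosome 4, 135728172 to 135752140, plus strand), had 2.87 and 4.87 CPM in DSS and 6.52 and 3.91 CPM in water (log2 fold change -0.43, SE 0.52, edgeR adjusted p = 0.880). Its order over the libraries was that of Epcam, an epithelial adhesion gene with 328 and 678 CPM in DSS and 804 and 524 CPM in water. Il22ra1 reads amounted to 0.00873 and 0.00717 of Epcam reads in DSS and to 0.00811 and 0.00746 in water. This ratio spanned a narrow range in which the groups overlapped, while Epcam itself varied more widely.

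Il10rb, the chain that Il22ra1 shares with the receptors of IL-10 and the interferon lambda family (chromosome 16, 91406164 to 91425834, plus strand), was the steadiest member. It had 40.2 and 48.7 CPM in DSS and 38.1 and 42.7 CPM in water, a log2 fold change of 0.14 (SE 0.25, edgeR adjusted p = 0.933). Il10ra, the chain specific to IL-10, had 119 and 85.7 CPM in DSS and 34.7 and 76.8 CPM in water (log2 fold change 0.88, SE 0.44, edgeR adjusted p = 0.677).

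Il22ra2, the soluble IL-22 binding protein (chromosome 10, 19621998 to 19634681, plus strand), varied more within each group than between them. It had 2 and 32 reads in DSS and 0 and 85 reads in water, or 0.0744 and 0.911 CPM against 0 and 2.48 CPM. Replicate 1 of each group was under the floor of 3 counts. A log2 fold change of -1.31 had an SE of 2 (edgeR adjusted p = 0.912), and the estimate took opposite signs without single libraries, -3.99 without DSS replicate 2 and 7 without water replicate 2. It was 0.77 by limma-voom with all libraries. Il22 had 65.5 and 2.78 times as many reads as Il22ra2 in DSS and 0.847 times in water replicate 2, the only water library with Il22ra2 reads.

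Ahr lies on chromosome 12 (35497974 to 35535038, minus strand) and had the highest mean CPM of the members in each group, although in water replicate 1 it lay below Il10rb (38.1 CPM). It had 86.0 and 113 CPM in DSS and 25.9 and 68.4 CPM in water, a mean of 99.4 ± 19.0 CPM in DSS and 47.2 ± 30.1 CPM in water (SD, n = 2 each). The groups did not overlap. Its log2 fold change was 1.08 (SE 0.48, edgeR adjusted p = 0.643, DESeq2 adjusted p = 0.351), 0.50 without water replicate 1 and 1.95 without water replicate 2. DESeq2 called Ahr without water replicate 2 (adjusted p = 0.00768).

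**Figure D3:**
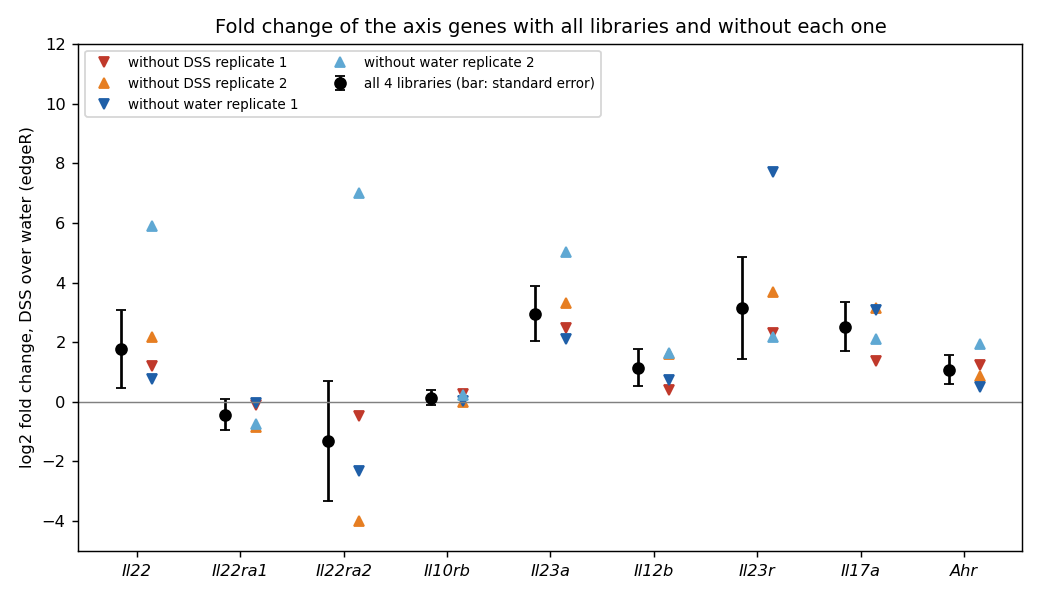
Log2 fold change of DSS over water from edgeR for each gene with all 4 libraries (black circle, bar: standard error) and without each library in turn (coloured triangles). Il22 reads 1.77 with all libraries but 0.78 and 5.88 without water replicates 1 and 2, and Il22ra2 lies on both sides of 0, whereas Il23a stays between 2.11 and 5.04.

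Levels of different genes were compared as CPM per kilobase of annotated exon. In DSS the order of means was Ahr (16.1), Il10rb (11.7), Il23a (4.37), Il17a (3.70), Il22 (3.34), Il12b (2.75), Il22ra1 (1.5), Il23r (0.331) and Il22ra2 (0.197). Ahr, Il10rb and the group that followed were set apart, with ranges that did not overlap, and so were Il22ra1 and Il23r. From Il23a through to Il22ra1, each gene overlapped its neighbour, and so did Il23r and Il22ra2. In water the order was Il10rb (10.6), Ahr (7.65), Il22ra1 (2.03), Il12b (1.25), Il22 (0.974), Il17a (0.642), Il23a (0.560), Il22ra2 (0.497) and Il23r (0.0357). There only Ahr and Il22ra1 were neighbours without overlap. Il23a thus ranked 3 by mean level in DSS and 7 in water.

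The promoters of Il22, Il17a and Il23r are shown as those of the cytokine and receptor genes of type 3 lymphocytes among the members. The levels of Il22 and Il17a did not follow each other across libraries. Il22 stood at 0.768 and 1.36 times Il17a per kilobase in DSS and at 0.0621 and 4.47 times in water. Il17a and Il23r had the same order over the libraries, with DSS replicate 1 highest and water replicate 2 lowest, although Il23r was near the limit of detection. RefSeq windows of 250 bases before to 50 after the start (GRCm38.p6) were at hand for 5 of the 9 members, namely Il22, Il17a, Il23r, Il22ra1 and Il12b. They were searched on both strands for letters bound by factors of the axis, AGGTCA (the half-site of nuclear receptors), TTCNNNGAA (STAT), GCGTG (AHR core), TGANTCA (AP-1) and an NF-kB motif of 3 G, any 2 bases, 3 T and 2 C. Capitals mark matches, and sequences run 5′ to 3′ on the strand of the gene.
Il17a, chr1:20730655-20730954, plus strand: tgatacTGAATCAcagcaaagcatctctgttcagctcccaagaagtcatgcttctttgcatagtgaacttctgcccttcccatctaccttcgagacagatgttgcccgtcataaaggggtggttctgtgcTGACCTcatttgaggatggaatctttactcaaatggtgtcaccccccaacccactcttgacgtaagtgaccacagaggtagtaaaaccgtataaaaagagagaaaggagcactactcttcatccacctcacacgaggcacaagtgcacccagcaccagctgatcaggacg
Il23r, chr6:67491806-67492105, minus strand: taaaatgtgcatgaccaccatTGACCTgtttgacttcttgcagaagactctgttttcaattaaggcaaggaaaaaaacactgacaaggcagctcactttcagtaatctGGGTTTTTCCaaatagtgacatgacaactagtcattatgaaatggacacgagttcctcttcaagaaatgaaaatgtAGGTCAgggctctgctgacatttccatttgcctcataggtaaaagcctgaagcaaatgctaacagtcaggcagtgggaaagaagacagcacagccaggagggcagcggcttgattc
Il22, chr10:118204714-118205013, plus strand: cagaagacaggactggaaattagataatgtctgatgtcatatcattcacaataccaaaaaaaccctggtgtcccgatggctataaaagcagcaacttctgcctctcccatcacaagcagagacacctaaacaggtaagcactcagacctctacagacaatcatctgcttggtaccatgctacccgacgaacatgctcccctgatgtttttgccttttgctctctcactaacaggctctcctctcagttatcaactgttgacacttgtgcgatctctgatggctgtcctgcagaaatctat
Il17a held the half-site letters, as TGACCT, from 120 to 115 bases upstream of the start, and an AP-1 match, TGAATCA, from 244 to 238 bases upstream. Il23r held the half-site letters from 229 to 224 and from 66 to 61 bases upstream and an NF-kB match, GGGTTTTTCC, from 142 to 133 bases upstream. Il22 held none of the 5 motifs in this window. The RefSeq start used for the Il22 window lies downstream of the gene start given above, so fewer of its bases lie before that gene start. Of all 32851 RefSeq windows of this length, 16.3% held the half-site letters, 7.81% the AP-1, 1.63% the NF-kB, 8.30% the STAT and 32.4% the AHR core. No STAT or AHR core match was found in the 5 member windows, and matches of short letters are a description, not binding sites.

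Summed markers of several cell types stood higher in both DSS libraries, among them eosinophils, the labelled cells, lymphoid and dendritic cells, which can make these cytokines, and others. Eosinophil markers lay above 0 for 6 of 7 tested of 10 listed (median log2 fold change 2.49), at 94.4 and 352 CPM in DSS and 7.85 and 72.9 CPM in water. T cell markers lay above 0 for 9 of 10 genes (median log2 fold change 1.80) and summed to 252 and 105 CPM in DSS and to 57 and 97.8 CPM in water, with none at 0 reads. Dendritic cell markers lay above 0 for 9 of 10 (median 1.05), at 335 and 239 CPM in DSS and 83.9 and 187 CPM in water, with none at 0. Innate lymphoid markers lay above 0 for 10 of 10 (median 1.62), at 93.7 and 111 CPM in DSS and 36.8 and 45.6 CPM in water. Of these, Ncr1 and Klrb1c, natural cytotoxicity and NK receptor genes, had 0 reads in water replicate 1. Ncr1, with 30 and 18 reads in DSS and 0 and 5 in water, passed the count filter through the DSS libraries alone. Its direction was thus in part required by the filter. Macrophage and monocyte markers lay above 0 for 4 of 10 (median -0.49), at 851 and 932 CPM in DSS and 785 and 1910 CPM in water. Neutrophil markers lay above 0 for 11 of 11 tested of 13 listed, at 1300 and 1850 CPM in DSS and 42.8 and 188 CPM in water. Among them Ngp, with 123 and 3512 reads in DSS and 3 and 0 in water, also passed the filter through the DSS libraries alone. Mast cell markers lay above 0 for 8 of 8 (median 2.56), at 121 and 269 CPM in DSS and 40.3 and 101 CPM in water. B and plasma cell markers lay above 0 for 10 of 10 (median 0.89), at 36700 and 7760 CPM in DSS and 7150 and 6250 CPM in water. The median over all genes tested was -0.01. The part of these markers in the axis genes was not tested.

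Member reads were also set against marker reads of the same library, as a description chosen after the values were seen. Il12b had 29.8 and 31.5 reads per 1000 T cell marker reads in DSS and 30.1 and 32.5 in water, the most even of its ratios to the marker lists. Against dendritic cell markers the Il12b groups overlapped, at 22.4 and 13.8 per 1000 in DSS and 20.5 and 17 in water. Against macrophage and monocyte markers they did not, at 8.83 and 3.54 in DSS and 2.19 and 1.66 in water. Il17a had 26.6 and 18.8 reads per 1000 T cell marker reads in DSS and 17.7 and 5.07 in water, where the groups did not overlap. Its groups overlapped at 71.5 and 17.7 per 1000 innate lymphoid marker reads in DSS and 27.4 and 10.9 in water. They also overlapped at 20 and 8.23 per 1000 dendritic cell marker reads in DSS and 12 and 2.65 in water. Against eosinophil, neutrophil, fibroblast and mast cell markers the Il17a groups overlapped as well. Against macrophage and monocyte, B and plasma cell, epithelial, endothelial and smooth muscle markers they did not. Il23a had 37.1 and 30.3 reads per 1000 dendritic cell marker reads in DSS and 3.53 and 11.8 in water, where the groups did not overlap. Against neutrophil markers the Il23a groups overlapped, at 9.59 and 3.91 per 1000 in DSS and 6.93 and 11.8 in water, and so they did against eosinophil markers, at 132 and 20.5 in DSS and 37.7 and 30.5 in water. Whether groups overlapped thus depended on the marker list chosen. Il22 had 19.3 and 24.2 reads per 1000 T cell marker reads in DSS and 1.04 and 21.5 in water, so that 3 of the 4 libraries were alike and water replicate 1 was low. Ahr had 101 and 121 reads per 1000 macrophage and monocyte marker reads in DSS and 33 and 35.8 in water, but 257 and 473 per 1000 dendritic cell marker reads in DSS and 309 and 365 in water, where the groups overlapped.

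**Figure D4:**
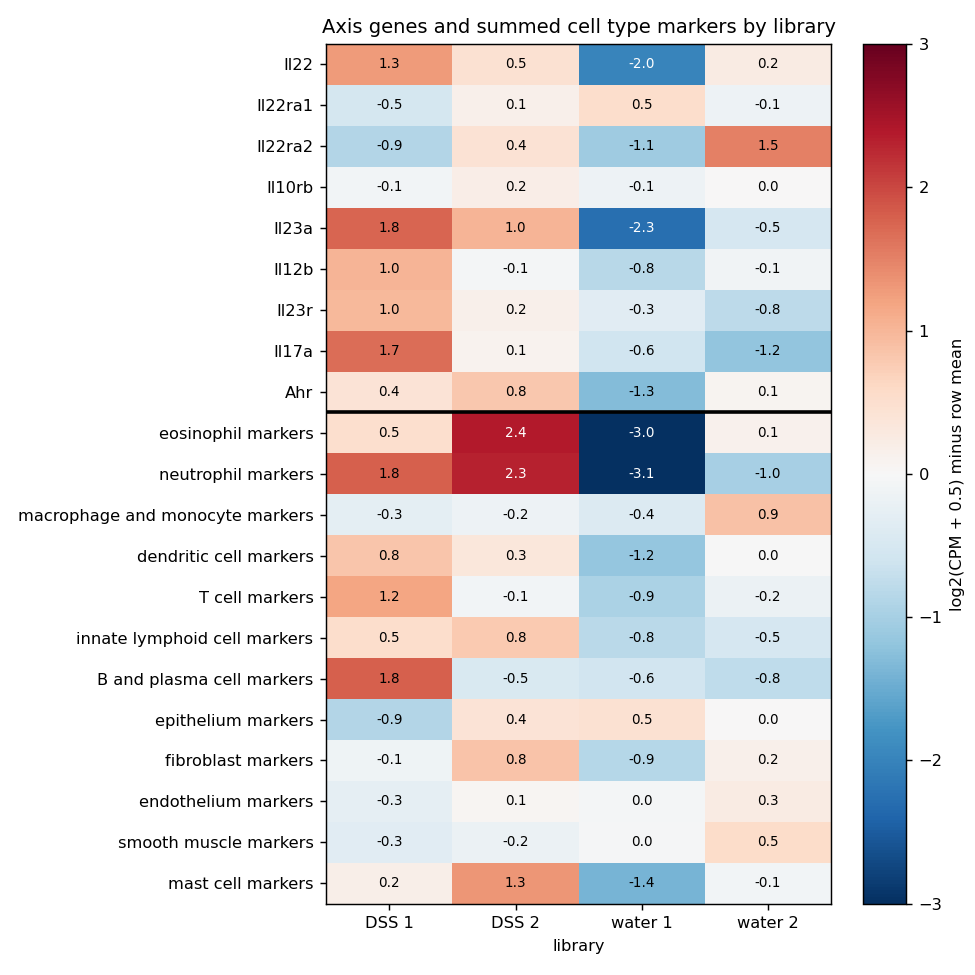
Log2(CPM + 0.5) minus the row mean for the 9 axis genes (above the line) and for the summed CPM of each cell type marker list (below it) in the 2 DSS and 2 water libraries. Il23a and the neutrophil and dendritic cell markers are lowest in water replicate 1, and Il17a and the T and B cell markers are highest in DSS replicate 1.

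Across the 4 libraries, the pattern of each member was compared with the genes of the other lists, by root mean square difference of centred log2(CPM + 0.5). Il22ra1 was nearest to Nqo1 (0.07), Il18 (0.09) and Epcam (0.14). Il22ra2, over a range of 2.58 log2 units, was nearest to the macrophage genes Adgre1 (0.43), C1qa (0.53) and C1qb (0.59). Il23a was nearest to Ptgs2 (0.21), Il1b (0.33) and the T cell receptor gene Trac (0.34), over a range of 4.02. Il22 was nearest to Ebi3 (0.28), Ptgs2 (0.34) and Itgae (0.35), over a range of 3.26. Il17a was nearest to Cd3g (0.25), Tbx21 (0.35) and Jchain (0.36), Il12b to Il27ra (0.09), Stat4 (0.15) and Il12rb2 (0.16), and Il23r to Cd209a (0.14), Sdc1 (0.15) and Il12rb1 (0.19). Il10rb was close to Vwf (0.11) and Il17c (0.11), and Ahr was nearest to Ccl2 (0.20), Nfkbiz (0.22) and Il12a (0.23). With 4 libraries many genes come this close.

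The rest of the pathway was taken from lists of 120 further genes, of which 109 were tested. edgeR called 0 of the 109 over all genes, and 37 had an unadjusted p under 0.05 in the higher direction (33.9%, against 5.06% of all genes) and 4 in the lower (3.67%, against 3.39%). DESeq2 called 20, all higher. Of these 20, 8 kept the DESeq2 call whichever library was left out. The median log2 fold change was 0.69. The lists were chosen with earlier results of these data known and hold many genes of inflammation, so these shares are a description.

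Of the 9 relatives of IL-10 and IL-20 listed, 4 were tested, 2 above and 2 below 0 (median 0.02). Without water replicate 2, 6 were tested, with 4 above 0 and a median of 1.20. The cytokine genes Il19, Il20 and Il24 were below the filter, with at most 12 reads in a library. Il10, the anti-inflammatory cytokine of the family, had 16 and 16.7 CPM in DSS and 6.16 and 21.7 CPM in water, overlapping groups. Ifnlr1, the interferon lambda receptor that also uses Il10rb, had 4.24 and 6.37 CPM in DSS and 10.9 and 7.53 CPM in water (log2 fold change -0.79, SE 0.43, edgeR adjusted p = 0.701). Il20rb, an IL-20 receptor chain, had 2.61 and 2.45 CPM in DSS and 3.41 and 2.34 CPM in water.

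All 6 further genes of the IL-12 and IL-23 families lay above 0 (median 1.41) and none had an unadjusted p under 0.05. Without DSS replicate 1, 5 of 6 lay above 0 (median 0.68), and without water replicate 1 again 5 of 6 (median 0.74). Il12rb2, the IL-12 receptor chain, had 4.43 and 1.54 CPM in DSS and 0.534 and 1.26 CPM in water. Ebi3, a subunit of IL-27, had 8.52 and 7.51 CPM in DSS and 1.01 and 5.02 CPM in water. Il27ra, the IL-27 receptor, had 15.2 and 7.11 CPM in DSS and 3.76 and 7.80 CPM in water, overlapping groups.

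Of the 8 tested IL-17 family genes, 3 lay above 0 and 5 below (median -0.31). Without water replicate 1 this turned to 5 above 0 and a median of 0.16. Il17ra, the receptor chain used by IL-17A and IL-17F, was set apart with 106 and 68.3 CPM in DSS and 29.9 and 40.1 CPM in water. Its log2 fold change was 1.31 (SE 0.33, edgeR adjusted p = 0.471, unadjusted p = 0.00704, DESeq2 adjusted p = 0.0533). Il17rc, the chain that pairs with it in epithelium, had 41.7 and 68.9 CPM in DSS and 162 and 59.7 CPM in water, where 1 library carried the difference (log2 fold change -1, SE 0.53). Il17rd, a further relative, had 8.19 and 8.45 CPM in DSS and 11.5 and 11.5 CPM in water. Il17b had no reads in any library and Il25 had 8 reads in water replicate 1 alone.

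Among signal transducers, 11 of 12 lay above 0 (median 0.63), 5 with an unadjusted p under 0.05. Leaving out DSS replicate 1 gave 2 such genes, DSS replicate 2 gave 3 and water replicate 1 gave 0. Stat3, the main transcription factor below the IL-22 and IL-23 receptors, had 283 and 256 CPM in DSS and 120 and 171 CPM in water (log2 fold change 0.89, SE 0.34, edgeR adjusted p = 0.573). Socs3, its feedback inhibitor, had 581 and 516 CPM in DSS and 316 and 475 CPM in water. Nfkbiz, an IL-17-induced regulator, and Tnfaip3, an inhibitor of NF-kB signalling, were called by DESeq2 (adjusted p = 0.0413 and 0.0131), each in 1 of 4 fits without a library, that without water replicate 2. Stat3 and Socs3 were singled out after their values were seen. Nfkbiz had 621 and 758 CPM in DSS and 200 and 349 CPM in water. Tnfaip3 had 1070 and 1160 CPM in DSS and 137 and 457 CPM in water.

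Of 22 genes of type 3 lymphocytes, 19 lay above 0 (median 1.37), with 10 at an unadjusted p under 0.05 in the higher direction and 1 in the lower. The 19 include Ncr1, which passed the count filter through the DSS libraries alone. The count in the higher direction was 4 without DSS replicate 1 and 6 without water replicate 1. DESeq2 called Zbtb16, a factor of innate-like lymphocytes, Il1r1, the IL-1 receptor, and Cd3e, a chain of the T cell receptor complex. Zbtb16 had 16.7 and 24.4 CPM in DSS and 6.64 and 5.14 CPM in water (log2 fold change 1.80, SE 0.36, DESeq2 adjusted p = 0.00664), a call lost without any 1 library. Il1r1 had 86.0 and 80.9 CPM in DSS and 15.4 and 35.6 CPM in water (DESeq2 adjusted p = 0.0145), and the call held without water replicate 2 alone. Cd3e had 16.5 and 5.18 CPM in DSS and 0.919 and 2.57 CPM in water (DESeq2 adjusted p = 0.0149), and the call was lost when replicate 1 of either group was left out. Lta, a lymphotoxin gene, was the 1 gene with an unadjusted p under 0.05 in the lower direction, at 1.04 and 0.683 CPM in DSS and 2.58 and 3.59 CPM in water (log2 fold change -1.84, SE 0.64, edgeR adjusted p = 0.538). Lta was singled out after its values were seen.

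**Figure D5:**
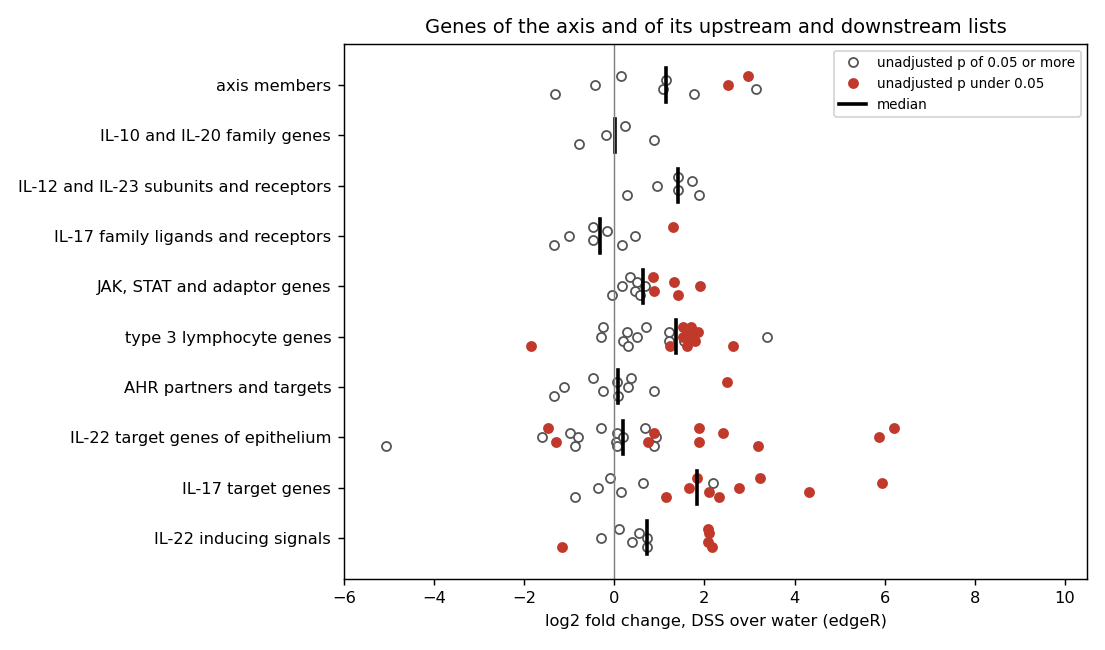
Log2 fold change of DSS over water from edgeR for each tested gene of the axis and of 9 lists around it (1 circle per gene, filled where the unadjusted p is under 0.05, vertical bar: median of the list). IL-17 target genes have a median of 1.83, IL-22 target genes of 0.20 and partners and targets of AHR of 0.08.

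Genes around AHR were divided. Of 10 tested, 6 lay above 0, and the median was 0.08 on the log2 scale and 0.31 without water replicate 2. Cyp1b1, a xenobiotic-metabolizing enzyme induced by AHR, had 2.38 and 3.64 CPM in DSS and 0.296 and 0.759 CPM in water (log2 fold change 2.50, SE 0.77, edgeR adjusted p = 0.505, unadjusted p = 0.0168). Cyp1a1, the most used readout of AHR activity, had 0.298 and 0.512 CPM in DSS and 0.771 and 0.993 CPM in water, a difference in the other direction (log2 fold change -1.11, SE 0.97). Tiparp, an AHR-induced repressor of AHR, had 144 and 111 CPM in DSS and 45.1 and 94.3 CPM in water (log2 fold change 0.88, SE 0.42, edgeR adjusted p = 0.664). Ugt1a6a, a conjugating enzyme, had 2.64 and 2.13 CPM in DSS and 9.87 and 2.22 CPM in water, where replicate 1 stood alone. Nfe2l2, the factor of the antioxidant response, had 238 and 190 CPM in DSS and 161 and 168 CPM in water (log2 fold change 0.38, SE 0.31). Ahrr, the AHR repressor, had 3.65 and 0.996 CPM in DSS and 1.39 and 5.02 CPM in water. Its groups overlapped. Cyp1a1 and Ahrr were singled out after their values were seen.

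IL-22 target genes of epithelium were mixed, with 15 of 23 tested above 0 (median 0.20), 8 at an unadjusted p under 0.05 in the higher direction and 2 in the lower. Leaving out DSS replicate 1 gave a median of 0.52, DSS replicate 2 one of -0.07 and water replicate 1 one of 0.71. DESeq2 called 6 higher, namely Lcn2, S100a8, S100a9, Saa3, Steap4 and Lrg1, several of which neutrophils or stromal cells also express. Saa3, a serum amyloid gene, had 58.7 and 102 CPM in DSS and 12.3 and 5.20 CPM in water (log2 fold change 3.19, SE 0.52, DESeq2 adjusted p = 1.1e-07, edgeR adjusted p = 0.329). Steap4, a metalloreductase, had 62.0 and 60.3 CPM in DSS and 18.2 and 14.9 CPM in water (log2 fold change 1.88, SE 0.26, DESeq2 adjusted p = 0.000106). Lrg1, a secreted leucine-rich glycoprotein, had 68.0 and 89.2 CPM in DSS and 23.4 and 19.4 CPM in water (DESeq2 adjusted p = 0.000133). Lcn2, an iron-sequestering lipocalin, had 53.1 and 125 CPM in DSS and 18.8 and 14.8 CPM in water (DESeq2 adjusted p = 6.26e-05). These genes kept the DESeq2 call whichever library was left out. The calprotectin genes, abundant in neutrophils, were called in 2 of 4 such fits, ending without either DSS library. S100a8 had 182 and 314 CPM in DSS and 0.741 and 5.99 CPM in water, and S100a9 had 367 and 479 CPM in DSS and 0.652 and 13.7 CPM in water.

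The antimicrobial lectin genes Reg3b and Reg3g, the best known IL-22 targets, had overlapping groups. Reg3b had 1110 and 4030 CPM in DSS and 1890 and 894 CPM in water (log2 fold change 0.88, SE 0.71, edgeR adjusted p = 0.807). Reg3g had 377 and 897 CPM in DSS and 442 and 225 CPM in water. Fut2, a fucosyltransferase of the epithelial surface, had 59.4 and 139 CPM in DSS and 104 and 84.2 CPM in water. In these genes DSS replicate 1 was the lower DSS library, as it was for Epcam. Reg3b, Reg3g and Fut2 were not set against Epcam reads as Il22ra1 was. Their overlap therefore holds for CPM only and does not take the differing epithelial content of the libraries into account. Muc1, a membrane mucin, had 5.84 and 5.24 CPM in DSS and 18.4 and 8.64 CPM in water (log2 fold change -1.29, SE 0.46, edgeR adjusted p = 0.544). Reg3b, Reg3g, Fut2 and Muc1 were singled out after their values were seen.

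Of 15 IL-17 target genes tested, 12 lay above 0 (median 1.83), with 9 at an unadjusted p under 0.05 in the higher direction and 0 in the lower. These became 5 without DSS replicate 1 and 6 without DSS replicate 2 in the higher direction, and the median was 1.16 without water replicate 1. DESeq2 called 7, namely Csf3, Cxcl5, Mmp3, Il6, Cxcl1, Cxcl2 and Tnfaip2. Csf3, the growth factor of granulocytes, had 17.0 and 12.4 CPM in DSS and 0.178 and 0.292 CPM in water (log2 fold change 5.94, SE 0.53, edgeR adjusted p = 0.100). Cxcl5, a neutrophil chemokine, had 22.0 and 24.8 CPM in DSS and 4.06 and 2.83 CPM in water (log2 fold change 2.76, SE 0.35, edgeR adjusted p = 0.247). Mmp3, a matrix metalloproteinase, had 48.1 and 28.6 CPM in DSS and 1.13 and 2.72 CPM in water. Il6, an inflammatory cytokine, had 128 and 108 CPM in DSS and 22.9 and 31.7 CPM in water. Csf3, Cxcl5, Mmp3 and Il6 kept the DESeq2 call whichever library was left out. The chemokine gene Cxcl1 had 202 and 262 CPM in DSS and 43.5 and 87.1 CPM in water, and Cxcl2 had 590 and 931 CPM in DSS and 38.7 and 265 CPM in water. Tnfaip2, a TNF-induced gene, had 676 and 346 CPM in DSS and 103 and 222 CPM in water. The Cxcl2 call held without water replicate 2 alone, that of Cxcl1 was lost when DSS replicate 2 or water replicate 1 was left out, and that of Tnfaip2 when replicate 1 of either group was left out. Pigr, the epithelial carrier of IgA, had 855 and 2730 CPM in DSS and 2800 and 1780 CPM in water, and Ccl20, the ligand that draws type 3 cells, had 7.52 and 4.89 CPM in DSS and 7.71 and 5.58 CPM in water. These last genes, singled out after their values were seen, had overlapping groups.

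Of 11 signals known to induce or restrain IL-22, 9 lay above 0 (median 0.72), and the median was 0.33 without DSS replicate 1, 0.15 without water replicate 1 and 1.60 without water replicate 2. DESeq2 called Il1b, Il6 and Ptgs2. Il1b, which encodes IL-1 beta, had 1920 and 1120 CPM in DSS and 205 and 519 CPM in water. Ptgs2, which encodes the COX-2 of the series title, had 910 and 601 CPM in DSS and 70.5 and 284 CPM in water, and for both genes the DESeq2 call was lost when replicate 1 of either group was left out. The prostaglandin E2 receptor genes Ptger2 and Ptger4 had overlapping groups. Ptger4 had 62.9 and 82.1 CPM in DSS and 51.3 and 84.2 CPM in water (log2 fold change 0.10, SE 0.34), and Ptger2 had 9.15 and 2.53 CPM in DSS and 1.54 and 5.52 CPM in water. Both receptors were singled out after their values were seen.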

How the data were processed

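Poly-A RNA was converted to cDNA with random hexamers, per the labels' protocols, and strand use is not stated. The authors deposited raw read counts per gene symbol with no normalization. STAR, HISAT2, featureCounts, HTSeq, DESeq2 and the builds mm10 and GRCm38 are named in the submitters' processing notes, with no versions or roles. Coordinates, exon lengths and overlaps come from GENCODE vM21 (GRCm38), which matched 92.8% of symbols by name. Of annotated genes overlapping a member, none had more than 9 reads in a library.

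Counts were filtered with filterByExpr (minimum count 10, minimum total 15), which kept 18788 genes with 99.4% of counts, scaled by TMM and tested with edgeR 4.0.16 (glmQLFit with robust, glmQLFTest, group only) under R 4.3.3. Genes with an adjusted p under 0.05 over all genes were called. The common biological coefficient of variation was 0.432. Alternatives were DESeq2 1.42.0, limma-voom (limma 3.58.1), other scalings and filters, fewer features, a replicate block, halved counts and leaving out each library. The labels do not state whether libraries of a group are from different animals, and the p-values may therefore reflect technical spread only. With 2 against 2, an exact permutation test of one gene cannot go below p = 0.333.

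Among counts of 1 to 10, between 70.5% and 73.2% were even in each library, as were 25 of the 36 member values. Should each mate have been counted on its own, counting intervals (exact Poisson, 95%) are too narrow and the floor of 3 counts too low. Both cover counting error only.

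In 3 simulations on the same 18788 genes, 200 of them changed, edgeR called 50% of genes changed 4-fold and 90.7% changed 8-fold, and DESeq2 78% and 96%. The changed genes were drawn only from those above a set mean CPM, which Il23r and Il22ra2 did not reach. These shares therefore do not cover genes with so few reads. Simulated counts were also drawn for each gene on its own, without differences in cell content that many genes of a library share. In the data edgeR called 0 of 18788 genes higher in DSS. Those not called include S100a8 at 73.5-fold (edgeR adjusted p = 0.333) and Csf3 at 61.5-fold (0.100). The simulated shares are thus not the power of edgeR in these libraries, and the lack of calls does not show a lack of change. The members, lists and rules were chosen with earlier results of these data known. The 9 members were always named. From each other list the genes called by edgeR or DESeq2 were taken, or, with none called, up to 4 with the lowest unadjusted p. For likeness the 3 nearest genes of other lists were taken. Some genes of the lists are not reported here. Genes beyond these rules were chosen after their values were seen. Marker lists of fibroblasts, endothelium and smooth muscle are shown by library in the heat map of marker lists.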

Additional observations from a re-analysis of the deposited data

How the results depend on the processing

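The number of genes called depended on the test and the libraries. With all libraries edgeR called 0 genes higher and 3 lower in DSS, 0 members and 0 of the other axis genes. With no count filter these became 710, 341, 2 (Il23a and Il17a) and 33, and with the DESeq2 Wald test 322, 175, 1 and 20. limma-voom and the replicate block each called 0 genes lower and 0 higher. At an unadjusted p under 0.05 limma-voom had 961 genes higher and 571 lower, and the block 739 and 378. Without each library in turn, edgeR called from 0 to 123 genes higher, from 3 to 73 lower, from 0 to 1 member and from 0 to 9 other axis genes. By DESeq2 the counts higher, lower, of members and of other axis genes were 135, 31, 0 and 11 without water replicate 1, 639, 193, 3 and 31 without water replicate 2, 79, 92, 0 and 9 without DSS replicate 1, and 364, 212, 0 and 20 without DSS replicate 2. Of the fits without a library, that without water replicate 2 called the most members by either tool. The cause was not tested.

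The labels do not say whether replicate numbers pair the libraries. The correlation of deviations by replicate number was -0.14, from 2 pairs, which is too few to decide it. The replicate block called no member. The crossed block, with water 1 beside DSS 2, called 29 genes higher, 15 lower, 0 members and 5 other axis genes. Among member fold changes, the sign reversed for Il22ra2 with limma-voom (0.77) and without water replicate 2 (7 by edgeR, 6.5 by DESeq2), and for Il10rb without DSS replicate 2 (-0.01). Leaving out libraries, edgeR gave -3.99 to 7 for Il22ra2 and -0.01 to 0.26 for Il10rb. Every other alternative run kept the sign of the members. Scaling by DESeq2 size factors or upper quartile kept every list median's sign, except that the median of the IL-10 and IL-20 family genes became -0.02 with upper-quartile scaling. DESeq2 without each library, halved counts and the crossed block were added after the data were seen. Reads were at or under the floor of 3 counts for Il23r in water replicate 2, for Il22ra2 in DSS replicate 1 and water replicate 1, and for Il22 in water replicate 1.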
